A study of Mus musculus with 6 samples.

Results

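Tankyrases are described here in HL-1, a contractile cell line of mouse atrial origin, together with a ligase, scaffolds and other proteins linked to them. The 10 genes, Tnks, Tnks2, Rnf146, Axin1, Axin2, Terf1, Tnks1bp1, Amot, Amotl1 and Amotl2, were picked by symbol from the 21269 genes of the table, and all 10 were present. The genes were listed by function, but the set was chosen by measured values of LNA Malat1 against LNA Control, with the lower Tnks known, so values of that contrast are given for these genes as a description. No p-value is printed for them, and whether they met the call rule used for all genes is stated as part of that description. The libraries were made from total RNA with a stranded kit. HL-1 cells were transfected with 50 nM of an LNA-gapmer, a DNA strand with locked ends that directs cleavage of the RNA it pairs with. LNA Control received a control gapmer and LNA Malat1 a gapmer against the long noncoding RNA Malat1. Cells of both groups had been seeded 24 hours earlier, grew in Claycomb medium with serum and norepinephrine, and were collected 48 hours after transfection. Each group had 3 libraries. Nothing in the labels says that these came from separate cultures, so any test measures only the spread between the libraries. HL-1 is a single immortalized line derived from an atrial tumor of a mouse carrying SV40 T antigen under the atrial natriuretic factor promoter.

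Tankyrases are poly(ADP-ribose) polymerases. They bind partner proteins through ankyrin repeats, attach chains of ADP-ribose to them, and so mark many of them for the ubiquitin ligase RNF146 and the proteasome. The axins are scaffolds of the complex that degrades beta-catenin, and the angiomotins hold the coactivator YAP in the cytoplasm and at junctions. TERF1 (TRF1) binds telomere repeats, and RNA counts do not show whether tankyrase acts on the mouse protein. Tankyrase 1 also sits at spindle poles in mitosis, where NUMA1 is among its partners.

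The libraries held 4758777 to 4921406 normalized counts each, and the reads on genes recovered from them numbered 4512626 to 5593499. The targeted RNA checked the labels. Malat1 had 4369 to 5197 normalized counts in LNA Control and 2732 to 2833 in LNA Malat1, 57.2% of LNA Control, so much of it remained. LNA Malat1 replicates 1 and 3 differed by less than the sampling noise over 14522 genes (chi-square of 0.948 per gene) and were counted as 1 sample in each mean ± SD, although replicates 1 and 2 were not told apart by the same test either (1.011 per gene, chi-square p = 0.18) and replicates 1 and 3 differed in the 1754 genes with the most reads (chi-square p = 0.00058). LNA Control libraries spread more, by 1.768 to 4.179 per gene. The fits behind each SE and adjusted p counted LNA Malat1 replicates 1 and 3 as separate, unless they are said to be merged. Of 10 atrial cardiomyocyte markers, 9 were in the table and their summed counts were 5124 to 5393 in LNA Control and 4858 to 5037 in LNA Malat1. Ryr2, at 2237 to 2706, was the largest part of these sums, and the markers did not all go one way. Tnnt2 and Myl4 were higher without overlap between the groups (20.5% of all genes tested). Ryr2, Gata4 and Tbx5 were lower without overlap (20.8%), and the others overlapped. Ryr2, Gata4 and Tnnt2 were well measured, whereas the atrial myosin genes Myh6 and Myl7 stood at no more than 7 and 32 normalized counts in any library. Nppa was not analysed here. The fibroblast collagen gene Col1a1 stood at 1794 to 2486, with Col1a2 at 0 or 1.

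Tnks encodes tankyrase 1 and Tnks2 its close paralog, tankyrase 2. Tnks lies on the minus strand of chromosome 8 (mm10, chr8:34826460-34965690, 24 exonic blocks, 14888 exonic bases in all) and Tnks2 on the plus strand of chromosome 19 (chr19:36834232-36893477, 27 blocks, 10406 bases). Whether reads of one could be counted for the other was examined first, because their coding sequences were 74.6% identical over 3471 aligned bases. The longest run of bases found in both was 20 bases long. It lies inside an 80-base window of each gene, which is printed here to show how far the paralogs can be told apart, read 5′ to 3′ on the coding strand, with the 21 bases that differ in capitals. The windows are coding bases 1405 to 1484 of Tnks (chr8:34869545-34873058, minus strand) and 952 to 1031 of Tnks2 (chr19:36857959-36859103, plus strand), counted from the first base of the coding sequence, and both cross an intron.
Tnks: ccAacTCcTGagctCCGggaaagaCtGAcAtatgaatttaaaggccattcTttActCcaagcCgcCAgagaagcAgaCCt
Tnks2: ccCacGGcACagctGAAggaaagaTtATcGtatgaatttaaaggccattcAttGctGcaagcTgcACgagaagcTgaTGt
The reads were 75 bases long, and no 75-base word of a Tnks transcript was found in a Tnks2 transcript. Of the 15168 such words of Tnks, 487 lay in Gm9939, a noncoding gene that starts opposite the first exon of Tnks, and 50 of the 10545 words of Tnks2 lay in Ccdc62. Tnks and Tnks2 could thus be counted apart almost throughout.

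Tnks had 1812, 1840 and 1754 normalized counts under LNA Control against 937, 940 and 943 under LNA Malat1. The groups were far apart, and the LNA Malat1 libraries were within 6 counts of each other. LNA Control averaged 1802 ± 43.9 (SD, n = 3), and the LNA Malat1 mean of 940 was 52.2% of it. On the log2(normalized count + 1) scale used for every fold change here, the log2 fold change was -0.94 (SE 0.05). In a bulk library, fewer cells of a type and less RNA per cell cannot be told apart. Of 3205 genes averaging 500 or more normalized counts, 10 had a lower log2 fold change than Tnks. Because Tnks was chosen with this contrast known, its rank is a description and lends no support.

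Tnks2 had 2020, 2034 and 1851 normalized counts under LNA Control against 1773, 1832 and 1801 under LNA Malat1. The groups did not overlap, but the distance from 1832 to 1851 was small beside the spread of LNA Control. The mean was 1968 ± 102 (SD, n = 3) in the control cells and 1810 ± 31.8 (SD, n = 2) in the knockdown, a log2 fold change of -0.13 (SE 0.06) that was under 1.5-fold. The balance of the paralogs was therefore also computed within each library. The ratio of Tnks to Tnks2, in which a scaling of the whole library cancels, was 0.897, 0.905 and 0.948 in the control libraries against 0.529, 0.513 and 0.524 in the knockdown libraries. Its mean was 0.916 ± 0.027 (SD, n = 3) against 0.520 ± 0.0091 (SD, n = 2). The counts of both genes together went from 3770 ± 145 (SD, n = 3) to 2750 ± 31.8 (SD, n = 2), or 72.9% of LNA Control.

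**Figure D1:**
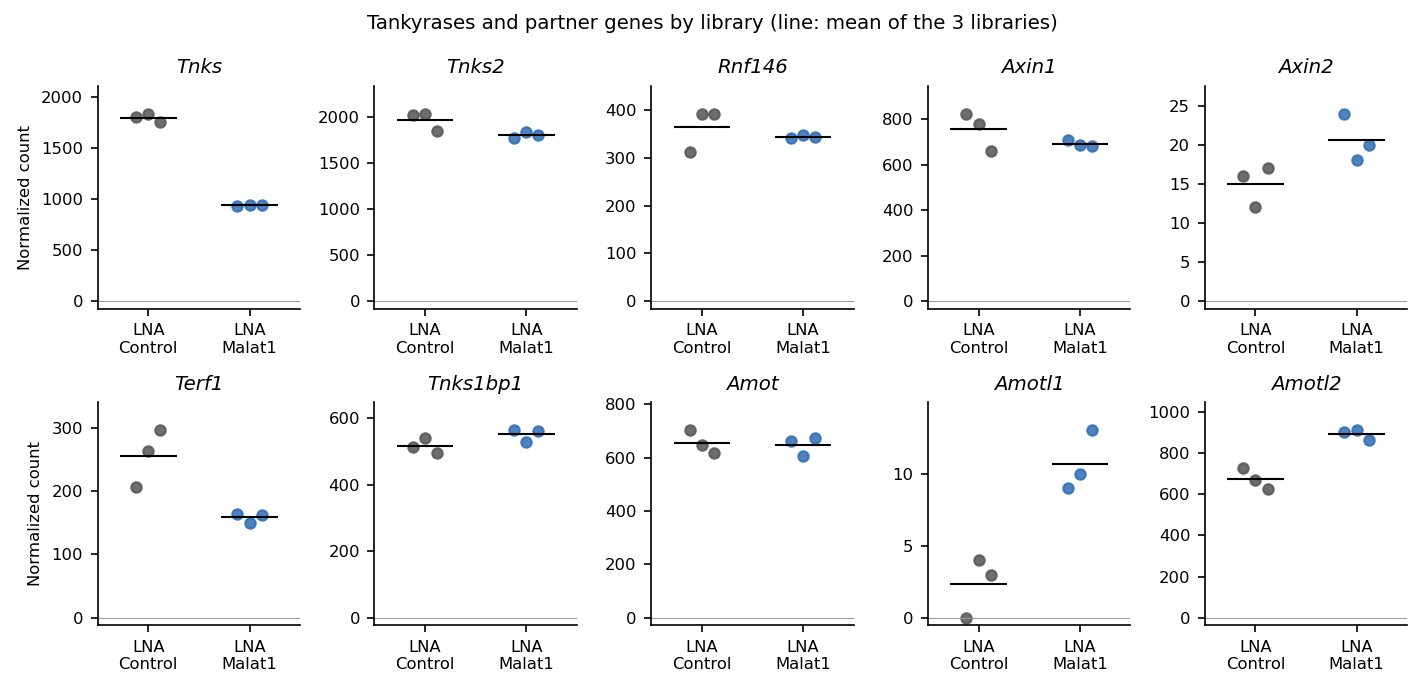
Normalized counts (vertical axes, each with a thin line at 0) of the 10 genes in the 3 LNA Control libraries (grey) and the 3 LNA Malat1 libraries (blue), with a line at the mean of the 3 libraries. Tnks and Terf1 are lower and Amotl1 and Amotl2 higher in every LNA Malat1 library, whereas the groups overlap for Rnf146, Axin1, Tnks1bp1 and Amot.

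Rnf146 encodes the RING ligase that recognizes poly(ADP-ribosyl)ated proteins. It had 313, 393 and 392 normalized counts under LNA Control against 341, 348 and 345 under LNA Malat1, so all LNA Malat1 values fell inside the LNA Control range. The log2 fold change was -0.08 (SE 0.08). This gene (chr10:29344176-29362442, minus strand) is poorly separated from its neighbors, because 3424 of its 4456 exonic bases (76.8%) also belong to exons on the opposite strand, mainly those of Echdc1. Reads on several genes were excluded by the authors, and whether the counting used the strand is not stated, so the Rnf146 count may rest on the remaining exonic sequence alone. Echdc1 itself had 411 to 490 normalized counts in LNA Control and 404 to 434 in LNA Malat1.

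Of the axins, Axin1 was well measured and Axin2 was not. Axin1 (chr17:26138688-26195811, plus strand), the constitutive scaffold, had 825, 780 and 661 normalized counts under LNA Control against 708, 685 and 682 under LNA Malat1. The LNA Malat1 values again fell inside the LNA Control range, and the log2 fold change was -0.12 (SE 0.07). Axin2 (chr11:108920349-108950783, plus strand), a feedback inhibitor that is itself transcribed in response to beta-catenin, was sparse, with 16, 12 and 17 under LNA Control against 24, 18 and 20 under LNA Malat1. All LNA Malat1 values were above all LNA Control values by as little as 1 count, and the log2 fold change of 0.44 (SE 0.25) was near the median of 0.32 for the 1562 genes with a mean of 10 to 20 counts. Quantile normalization, which gives all libraries 1 distribution, took it to 0.06. As recovered reads, 46 in LNA Control and 65 in LNA Malat1 gave a depth-adjusted ratio of 1.34, given as a description.

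Terf1 encodes the telomere protein by which tankyrase was named. It lies on chromosome 1 (chr1:15805646-15844052, plus strand) and had 206, 263 and 296 normalized counts under LNA Control against 164, 149 and 163 under LNA Malat1. The groups did not overlap, and the LNA Control libraries were spread widely. Its LNA Control mean of 255.0 ± 45.5 (SD, n = 3) compared with 156 ± 10.3 (SD, n = 2), and the log2 fold change was -0.67 (SE 0.11). It was -0.55 without LNA Control replicate 3, which is under the 1.5-fold minimum. Tnks1bp1, which encodes the large tankyrase-binding protein TAB182 (chr2:85048022-85073048, plus strand), had 514, 541 and 497 under LNA Control against 564, 530 and 562 under LNA Malat1. Its groups overlapped, and the log2 fold change was 0.09 (SE 0.06).

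Of the 3 angiomotin genes, Amot overlapped between the groups, and Amotl1 and Amotl2 did not. Amot (chrX:145446425-145505181, minus strand) had 702, 648 and 616 normalized counts under LNA Control against 661, 607 and 674 under LNA Malat1, with full overlap. Its log2 fold change was -0.02 (SE 0.06) and turned to 0.04 with quantile normalization. Amotl2 (chr9:102716672-102733418, plus strand) had 728, 670 and 626 under LNA Control against 902, 910 and 863 under LNA Malat1. Its lowest LNA Malat1 library, at 863, was well above its highest LNA Control library, at 728. The LNA Malat1 mean of 896 ± 19.5 (SD, n = 2) was 133% of the LNA Control mean of 675 ± 51.2 (SD, n = 3). The log2 fold change was 0.40 (SE 0.06). Of the 3205 genes averaging 500 or more counts, 62 had a higher log2 fold change than Amotl2. In that range 941 genes were lower than Tnks2, 980 lower than Axin1, 1864 lower than Amot and 2594 lower than Tnks1bp1. These ranks too are a description only.

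Amotl1 (chr9:14541966-14645056, minus strand) was close to silent, with 0, 4 and 3 normalized counts under LNA Control against 9, 10 and 13 under LNA Malat1. Its mean of 2.3 ± 2.1 (SD, n = 3) in LNA Control was below the minimum of 5 set for testing, and it was tested only because LNA Malat1 stood at 10.5 ± 0.71 (SD, n = 2). The log2 fold change of 2.09 (SE 0.57) rests on few reads, 7 in LNA Control and 33 in LNA Malat1 as recovered. Their depth-adjusted ratio was 4.47, given as a description. Genes this sparse were higher in LNA Malat1 in general, with a median log2 fold change of 0.43 in the 1763 genes with a mean of 5 to 10 counts, and 16.1% of them were called higher. With quantile normalization the log2 fold change of Amotl1 was 1.33, and it was no longer called.

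Axin2, Amotl1 and Amotl2 were the genes of the group that were higher in every LNA Malat1 library. Their promoters are therefore shown, 250 bases before to 50 bases after the start, as RefSeq gives them on GRCm38.p6, the build also called mm10. RefSeq promoters were matched by symbol for 6 of the 10 genes. Capitals mark the core of the TEAD site, GGAATG or its complement CATTCC, and the core of the TCF/LEF site, CTTTGAT or ATCAAAG. The TEAD factors are the DNA-binding partners of YAP, and TCF and LEF those of beta-catenin. Both strands were searched, and the motifs overlap nowhere in these promoters. The windows are chr11:108920099-108920398 (plus strand) for Axin2, chr9:14614951-14615250 (minus strand) for Amotl1, and chr9:102717554-102717853 (plus strand) for Amotl2. The Axin2 window spans the outer start of the gene, 108920349. Those of Amotl1 and Amotl2 lie inside the gene, whose outer start is at 14645056 and 102716672. The sequence before these outer starts was not searched.
Axin2: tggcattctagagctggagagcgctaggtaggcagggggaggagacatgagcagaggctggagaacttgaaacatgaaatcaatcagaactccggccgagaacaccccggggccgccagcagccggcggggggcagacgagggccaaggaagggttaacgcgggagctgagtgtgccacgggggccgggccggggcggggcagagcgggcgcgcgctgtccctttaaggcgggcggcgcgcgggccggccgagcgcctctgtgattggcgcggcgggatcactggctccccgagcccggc
Amotl1: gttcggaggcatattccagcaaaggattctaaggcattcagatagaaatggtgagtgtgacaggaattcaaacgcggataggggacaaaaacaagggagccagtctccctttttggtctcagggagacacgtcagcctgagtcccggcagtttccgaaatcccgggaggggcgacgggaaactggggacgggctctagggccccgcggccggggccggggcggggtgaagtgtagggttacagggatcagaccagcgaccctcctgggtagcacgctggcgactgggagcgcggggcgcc
Amotl2: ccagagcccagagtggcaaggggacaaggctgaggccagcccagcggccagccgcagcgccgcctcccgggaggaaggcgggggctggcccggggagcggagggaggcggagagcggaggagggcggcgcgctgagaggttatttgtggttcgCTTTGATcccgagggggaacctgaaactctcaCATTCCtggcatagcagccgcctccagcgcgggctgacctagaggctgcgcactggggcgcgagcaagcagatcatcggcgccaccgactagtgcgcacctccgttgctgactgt
Only the Amotl2 promoter of these 3 held either core, with 1 match to each. The TEAD core began 65 bases and the TCF/LEF core 97 bases before the start. Across all 32851 promoters of that length, 14.7% held the TEAD core and 3.7% the TCF/LEF core. Neither core was found in the promoters of Tnks2, Rnf146 and Amot. The Amot window (chrX:145487590-145487889) and an Rnf146 window at chr10:29357664-29357963 also lay inside the gene. A match of letters describes the sequence and does not show binding.

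A gene was called at a limma adjusted p of at most 0.05 with at least a 1.5-fold change. By this rule 2 of the 10 genes were called lower, Tnks and Terf1, against 2.92% of the 15650 genes tested, and 1 of 10 was called higher, Amotl1, against 8.00%. Without the fold minimum 2 were lower, against 14.0% of all genes, and 2 were higher, Amotl1 and Amotl2, against 14.3%. The libraries of the groups did not overlap in 3 genes that were lower, Tnks, Tnks2 and Terf1 (20.8% of all genes), and in 3 that were higher, Axin2, Amotl1 and Amotl2 (20.5%). Because the contrast served to choose the list, nothing is read from these shares. Over all genes 1252 were called higher and 457 lower, and with quantile normalization 748 and 718. The median log2 fold change was -0.05 over the 10 genes and 0.02 over all genes tested. With each library left out in turn, Tnks lay between -0.96 and -0.92, Terf1 between -0.81 and -0.55, Amotl2 between 0.35 and 0.46, and Amotl1 between 1.37 and 2.53. Tnks was called in each of those fits, whereas Amotl1 lost its call when any 1 LNA Malat1 library was left out.

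**Figure D2:**
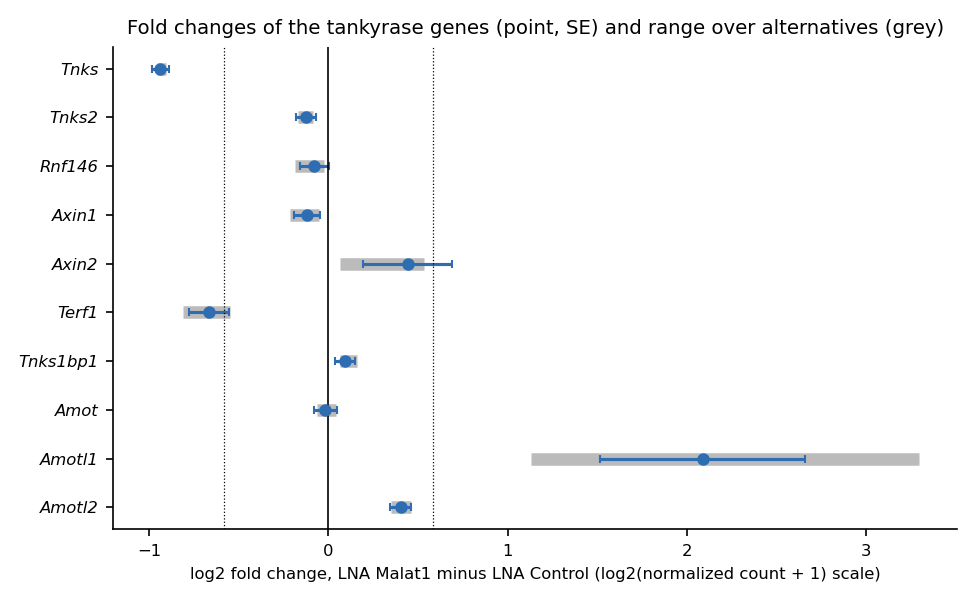
Log2 fold change of the 10 genes, LNA Malat1 minus LNA Control, as a point with its SE, and as a grey bar the range over the alternative settings. Dotted lines mark the 1.5-fold minimum, 0.58 on the log2 scale in either direction. Tnks at -0.94 has a narrow range, and Amotl1 at 2.09 the widest.

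Levels were compared between the genes per kb of exon, since a longer RNA yields more reads. In LNA Control the normalized count per kb was 197 ± 22.1 for Axin1, 189 ± 9.8 for Tnks2, 121 ± 3.0 for Tnks, 107 ± 8.1 for Amotl2, 83.7 ± 3.6 for Tnks1bp1, 82.1 ± 10.3 for Rnf146, 78.0 ± 5.2 for Amot and 55.3 ± 9.9 for Terf1 (SD, n = 3). Axin2 followed at 2.7 ± 0.48 and Amotl1 at 0.23 ± 0.21. The LNA Control libraries overlapped between Axin1 and Tnks2, and likewise among Tnks1bp1, Rnf146 and Amot, so those neighbors cannot be ordered. The Rnf146 count was divided by all 4456 exonic bases, although 3424 of them are shared with opposite-strand exons. If its reads came only from the remaining bases, its level was underestimated, so its place in the order is uncertain by either length. In LNA Malat1 the level per kb was 63.1 for Tnks and 143 ± 3.1 (SD, n = 2) for Amotl2, so that Tnks stood below Amotl2 there and above it in LNA Control. Scaffold and angiomotin pairs thus had a clearly dominant member at the RNA level, Axin1 over Axin2, and Amotl2 and Amot over Amotl1. The order depends on the length used. The longest transcript of Tnks has 9163 of its 14888 exonic bases, and per kb of longest transcript Tnks2 stood at 304, Tnks at 197 and Amotl2 at 152 in LNA Control, against 279, 103 and 202 in LNA Malat1. By exonic length Tnks was the seventh of the 10 genes in LNA Malat1, and by longest transcript it was the fourth.

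**Figure D3:**
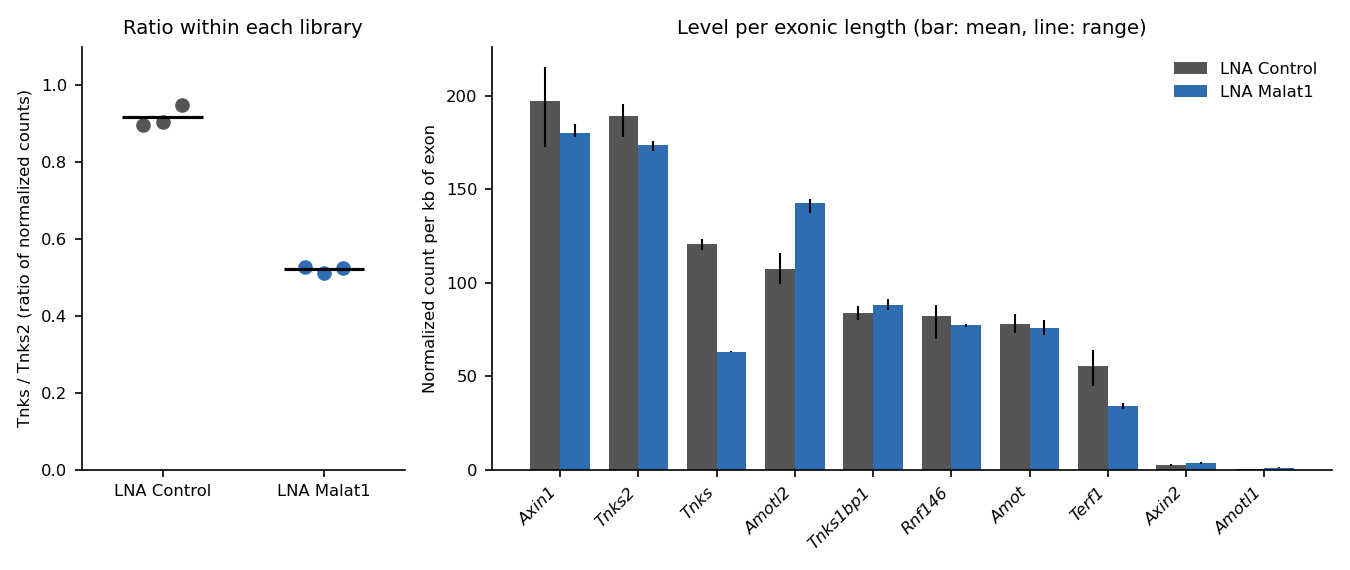
Left, the ratio of Tnks to Tnks2 normalized counts in each library, between 0.897 and 0.948 in LNA Control (grey) and between 0.513 and 0.529 in LNA Malat1 (blue), with a line at the mean. Right, normalized count per kb of exon for the 10 genes, as bars for the mean and lines for the range over libraries, where Tnks is at 121 in LNA Control and 63.1 in LNA Malat1. The order of the genes depends on the length used.

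The genes whose pattern over the 6 libraries was most like that of Tnks were sought among the other 10489 genes averaging 50 or more counts, by the root mean square difference of their centered log2 values. Snd1, which encodes a staphylococcal nuclease domain protein, was nearest (difference 0.025, log2 fold change -0.92), with 1074, 1060 and 988 normalized counts under LNA Control against 544, 556 and 551 under LNA Malat1. It was followed by Rgs19 (0.033), a regulator of G-protein signaling, and by Zc3h12c (0.037), Lypla1 (0.037) and Ccny (0.045), which encodes cyclin Y. The median gene differed from Tnks by 0.459. With 3 libraries a group, this measure mostly finds genes with a fold change of like size and little spread.

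Other genes of these pathways were taken from 6 lists, with p-values from limma on all 6 libraries adjusted over all 15650 genes. Of 88 genes listed, 84 were in the table and 82 were tested. Those called higher numbered 5 and those called lower 4, against 8.00% and 2.92% of all genes tested. Without the fold minimum 14 were higher and 17 lower, against 14.3% and 14.0% of all genes, and nothing particular to the lists is read from these counts. Calls under the fold minimum often changed when a library was left out, as given beside the genes. With LNA Malat1 replicates 1 and 3 merged, several genes did not pass by limma. These included Tcf7 (adjusted p = 0.062), Gsk3b (0.10), Dvl3 (0.14), Lnpep (0.085), Parp12 (0.057), Parp14 (0.11) and Adprhl2 (0.073). The median log2 fold change of the 82 genes was -0.02, against 0.02 for all genes.

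Other binding partners and substrates of tankyrase were tested for 14 genes, of which 3 were called lower and 0 higher (2.92% and 8.00% of all genes tested). Without the fold minimum 5 were lower and 2 higher (14.0% and 14.3% of all genes tested). The latter were Lnpep and Cenpj, named after their values were seen. Lnpep did not pass when any 1 LNA Malat1 library was left out (adjusted p = 0.087 to 0.11 by limma). Gmds, which encodes the enzyme that starts GDP-fucose synthesis, fell to 85.8 ± 2.47 (SD, n = 2) normalized counts from 192 ± 16.0 (SD, n = 3) (-1.14 on the log2 scale, SE 0.10, adjusted p = 7.5e-06 by limma). Notch2, a receptor gene, fell with a log2 fold change of -0.82 (adjusted p = 2.4e-05 by limma). Casc3, of the exon junction complex, had 528, 510 and 491 under LNA Control against 330, 309 and 292 under LNA Malat1 (-0.71 on the log2 scale, SE 0.06, adjusted p = 5.1e-06 by limma). The peroxisomal import gene Pex14 fell by 0.54 in log2 units (adjusted p = 0.00016 by limma), under the fold minimum except without LNA Malat1 replicate 3 (-0.61). Numa1, of the spindle pole, fell by 0.20 (adjusted p = 0.014 by limma), which no longer passed without LNA Malat1 replicate 2 or 3 (adjusted p = 0.065 and 0.077 by limma). The other 7 did not pass.

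In the list of the destruction complex and Wnt signaling, 1 of 18 genes was called lower and 0 higher (2.92% and 8.00% of all genes tested). This was Usp7, a deubiquitinase gene, with 1164, 1100 and 1073 normalized counts under LNA Control against 715, 649 and 699 under LNA Malat1 (-0.69 on the log2 scale, SE 0.06, adjusted p = 3.2e-06 by limma). Under the fold minimum, the beta-catenin gene Ctnnb1 fell by 0.24 (adjusted p = 0.0062 by limma), Amer1, a membrane anchor of the complex, by 0.26 (adjusted p = 0.0031 by limma), and the kinase gene Gsk3b by 0.16 (adjusted p = 0.049 by limma). Dvl3, a Dishevelled gene, had a log2 fold change of 0.28 (adjusted p = 0.038 by limma) with overlapping groups. Dvl3 did not pass without LNA Control replicate 2 or 3 or LNA Malat1 replicate 1 or 3 (adjusted p = 0.10 to 0.18 by limma), and Gsk3b passed in only 8 of 16 alternatives, failing without any 1 library other than LNA Control replicate 3. Apc, the other large scaffold, had 1303, 1562 and 1797 under LNA Control against 1552, 1609 and 1566 under LNA Malat1 (log2 fold change 0.03, SE 0.09). Of 12 target genes of beta-catenin besides Axin2, 6 were tested and 2 passed, in opposite directions. Of all genes tested, 14.3% were higher and 14.0% lower in this way. Tcf7, a TCF factor gene, had 31, 17 and 18 under LNA Control against 36, 37 and 46 under LNA Malat1 (0.86 on the log2 scale, SE 0.24, adjusted p = 0.017 by limma). It was no longer called without LNA Control replicate 2 (0.71) or when any 1 LNA Malat1 library was left out (0.76 to 0.93), nor with quantile normalization (0.60). In the 1835 genes with a mean of 20 to 50 counts, the median was 0.23 and 19.6% were called higher. Ccnd1, the cyclin D1 gene, fell by 0.48 (adjusted p = 0.00015 by limma).

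Other members of the PARP family and enzymes of poly(ADP-ribose) turnover showed no call among 16 genes. At an adjusted p of at most 0.05 without the fold minimum, 2 were lower and 3 higher (14.0% and 14.3% of all genes tested). Parp8 fell by 0.49 in log2 units (adjusted p = 0.00015 by limma) and Parp12 by 0.22 (adjusted p = 0.012 by limma). Parp3 rose by a log2 fold change of 0.28 (adjusted p = 0.0072 by limma), and Adprhl2, which encodes a hydrolase that removes ADP-ribose from serine, by 0.25 (adjusted p = 0.041 by limma). Adprhl2 did not pass when any 1 library was left out, nor Parp12 without LNA Control replicate 2 or LNA Malat1 replicate 1 or 3. The last of the higher genes was Parp14, named after its values were seen. Among the fits that left 1 library out, Parp14 passed only without LNA Control replicate 2.

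Besides Terf1, 8 genes of shelterin, the protein complex of telomeres, and of telomerase were tested. Of these 1 was called higher and 0 lower (8.00% and 2.92% of all genes tested). Without the fold minimum 1 was higher and 2 lower (14.3% and 14.0%). Pot1b, which encodes a single-strand telomere protein, fell by 0.44 (adjusted p = 0.00095 by limma) and its paralog Pot1a by 0.24 (adjusted p = 0.03 by limma), the latter not passing without LNA Control replicate 2 or 3 or LNA Malat1 replicate 1 or 2. The telomerase gene Tert was called higher at very low counts, 2, 3 and 1 under LNA Control against 6, 9 and 10 under LNA Malat1 (1.67 on the log2 scale, SE 0.45, adjusted p = 0.015 by limma). Its LNA Control mean was under the minimum of 5, so it was tested only through LNA Malat1. It was not tested without LNA Malat1 replicate 2 or 3, or with LNA Malat1 replicates 1 and 3 merged. With quantile normalization it was 1.07 and not called, and genes with a mean of 5 to 10 counts had a median of 0.43.

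Among 20 partners of the angiomotins and genes of the Hippo pathway, 3 were called higher and 0 lower (8.00% and 2.92% of all genes tested). Ccn1 and Ccn2, textbook targets of YAP, were both among them. Ccn1 had 193, 192 and 218 normalized counts under LNA Control against 327, 310 and 325 under LNA Malat1 (0.67 on the log2 scale, SE 0.07, adjusted p = 1.9e-05 by limma). Ccn2 had 70, 76 and 69 under LNA Control against 109, 104 and 124 under LNA Malat1 (0.64 on the log2 scale, SE 0.11, adjusted p = 0.00094 by limma). Without LNA Malat1 replicate 3 the value of Ccn2 was 0.57, under the fold minimum. The TEAD factors did not all go one way. Tead4 was called higher (0.73 on the log2 scale, adjusted p = 0.019 by limma), with means of 28 and 44.8 normalized counts. Tead3 rose by a log2 fold change of 0.57 (adjusted p = 5.3e-05 by limma), just under the minimum. Tead1, with far higher means of 1343 and 1020, fell by 0.36 (adjusted p = 0.013 by limma) and passed in 14 of 16 alternatives. Tead2, named after its values were seen, stood at -0.14 (adjusted p = 0.081 by limma). Tead4 was not called without LNA Malat1 replicate 1 (0.59) or replicate 3 (0.71), with these 2 replicates merged, or with quantile normalization (0.51). Of genes in its range of 20 to 50 counts, 19.6% were called higher. Tead3, in contrast, was called without LNA Control replicate 3 (0.59) or LNA Malat1 replicate 2 (0.60). Yap1 had 785, 734 and 698 under LNA Control against 728, 684 and 723 under LNA Malat1 (-0.05 on the log2 scale, SE 0.06, adjusted p = 0.52 by limma), and Wwtr1, which encodes TAZ, had a log2 fold change of -0.14 (adjusted p = 0.083 by limma). Without the fold minimum 6 genes were higher and 3 lower (14.3% and 14.0% of all genes tested). The latter were Tead1, Mob1a and Mpdz, named after their values were seen. Also higher were Mob1b (0.399 on the log2 scale, adjusted p = 0.00013 by limma) and Lats2 (0.265, adjusted p = 0.0055 by limma), named after their values were seen. The angiomotin gene Amotl2, also known as a target of YAP, stood at 0.40 on the same scale. It belongs to the genes chosen with this contrast known, so it adds no support to the values of Ccn1 and Ccn2. Whether YAP activity differed was not tested. Markers of other cell types did not all go one way. The summed counts of 2 smooth muscle markers were 128 to 137 in LNA Control and 156 to 166 in LNA Malat1, but Cnn1 was higher (112 and 148 on average) and Myh11 lower (20.3 and 14.2). The 2 endothelial markers summed to 19 to 28 and 32 to 35, and the macrophage marker Csf1r had 10 to 22 and 23 to 43. The 3 fibroblast markers measured summed to 1953 to 2530 and 1824 to 1957, with Pdgfra lower (44.3 and 32.2) and Col1a2 at 0 or 1. Their part in these values was not tested.

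**Figure D4:**
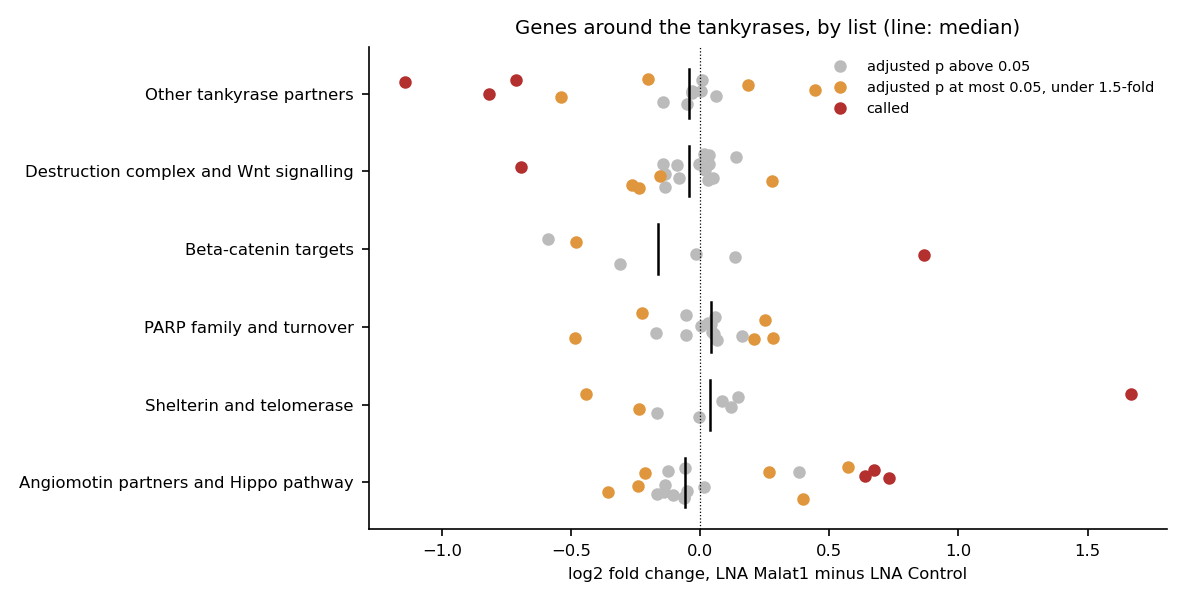
Log2 fold change, LNA Malat1 minus LNA Control, of the 82 tested genes of the 6 lists, 1 point per gene, with a line at the median of each list. Red points are called, orange points have an adjusted p of at most 0.05 under 1.5-fold, and the 51 grey points do not pass.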

How the data were processed

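RNA-seq of 6 HL-1 libraries was analysed, 3 LNA Control and 3 LNA Malat1, grouped by the sample titles. Per the study's methods and the submitters' processing notes, reads were trimmed (Trimmomatic 0.39), aligned to mm10 (STAR 2.7.7a) and counted per gene on exons (featureCounts 1.6.5), with reads on several genes or regions excluded. The values deposited by the authors are a score and not raw counts: counts scaled by 1 factor per library (DESeq2 1.30.0 was the authors' tool) and rounded, called normalized counts here. Rounding leaves integers that are skipped or used more often, and these gave back each factor. For LNA Malat1 replicate 2 it was uncertain (0.997 to 1.001 per read).

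Genes with a mean of at least 5 were fitted with limma 3.58.1 (R 4.3.3) on log2(normalized count + 1), lmFit and eBayes with trend, two-sided, Benjamini-Hochberg adjusted over 15650 genes. The fit was run on simulated data in which 200 genes with a mean of at least 50 changed 2-fold. It recovered 200 of them and called 2 unchanged genes. Both groups were given the same spread, so the wider spread of LNA Control was not covered. Changes at low counts or under 2-fold were not covered either. Exon models and transcripts came from GENCODE M21 (mm10), where all 10 genes have the same bounds as in the table, and promoters from RefSeq. The 10 genes, the lists and the tests were chosen with earlier results of these data known. Named genes are all 10, those called in a list, up to 4 with the largest fold change at an adjusted p of at most 0.05, Numa1, Ctnnb1, Apc, Gsk3b, Yap1, Wwtr1, the 5 nearest to Tnks in pattern, and coding genes within 500 kb of it.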

Additional observations from a re-analysis of the deposited data

How the results depend on the processing

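Of the 10 genes, 1 was called higher and 2 lower. The number called higher was 0 with a pseudocount of 0.1, with quantile normalization, with a mean of at least 50 and with replicates 1 and 3 of LNA Malat1 merged, 2 without a fold minimum, and 0 to 1 with a library left out. The number called lower was 0 at a minimum of 2-fold and 1 to 2 with a library left out. In the lists, the 5 called higher became 3 with quantile normalization, 2 with a mean of at least 50, 14 without a fold minimum, 1 at 2-fold, 2 with those replicates merged, and 1 to 6 with a library left out. The 4 called lower became 17 without a fold minimum and 1 at 2-fold. At 2-fold Malat1 itself, at -0.802, was not called. The sign of Amot turned with quantile normalization (0.044), and it ranged from -0.061 to 0.034 with a library left out. Apc ranged from -0.089 to 0.143 in the same way, and Yap1 was 0.005 with quantile normalization. With the longest transcript as length, levels per kb in LNA Control were 303.71 for Tnks2, 196.66 for Tnks, 152.4 for Amotl2, 94.2 for Amot, 87.91 for Tnks1bp1, 87.69 for Terf1 and 3.52 for Axin2. The cause of these shifts was not tested. Over all genes, the 1252 called higher became 317 with a mean of at least 50, 742 at 2-fold, 748 with quantile normalization, 769 without LNA Malat1 replicate 1, and 796 without replicate 3 or with replicates 1 and 3 merged, and 2231 without a fold minimum. The 457 called lower became 718 with quantile normalization, 99 at 2-fold and 2195 without a fold minimum.

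With the replicate number as a block (replicate block) 1 of the 10 genes was called higher and 2 lower, as without it, and 1297 genes were called higher and 442 lower in all. Same-numbered libraries deviated together weakly over 10490 genes (correlations of 0.086, 0.182 and 0.083). Differently numbered libraries had lower correlations, from -0.189 to 0.046. These values do not settle whether the numbers pair the samples, and the main fit left them unpaired.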

Other observations

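The protein-coding genes within 500 kb of Tnks were examined as well. Ppp1r3b, which encodes a glycogen-targeting subunit of protein phosphatase 1, had 1058, 1026 and 1002 normalized counts under LNA Control against 803, 817 and 823 under LNA Malat1 (-0.34 on the log2 scale, SE 0.05, adjusted p = 3e-04 by limma). Dusp4, a phosphatase gene that acts on MAP kinases, had a log2 fold change of -0.22 (adjusted p = 0.032 by limma), and Eri1, an exonuclease gene, one of -0.18 (adjusted p = 0.023 by limma). Eri1 did not pass without LNA Control replicate 2 or LNA Malat1 replicate 1 or 3, and Dusp4 only passed with all libraries or without LNA Control replicate 3 among the fits that left 1 out. All 3 were lower in each LNA Malat1 library than in any LNA Control library, as were 20.8% of all genes tested. None of the 3 reached 1.5-fold. The noncoding gene Gm9939, which shares 635 exonic bases with Tnks on the opposite strand, went the other way at low counts, with 8, 7 and 8 under LNA Control against 15, 19 and 17 under LNA Malat1 (1.05 on the log2 scale, SE 0.28, adjusted p = 0.014 by limma). It was named after its values were seen. Genes with a mean of 10 to 20 counts had a median log2 fold change of 0.32.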
